A study of Mus musculus with 14 samples.

Results

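Cardiac fibroblasts taken from infarct scars 4 weeks after myocardial infarction (MI) were set against fibroblasts of uninjured hearts. The comparison rests on 6 of the 14 arrays of the series, the 3 labelled CF 4W post-MI and the 3 labelled CF uninjured, and covers 19494 genes with a symbol. The other 8 arrays came from younger infarcts (3 days, 7 days or 2 weeks) and served to estimate the spread and to place the 4-week values in time. All mice had the C57BL/6 background and the genotype TCF21-MerCreMer;R26GFP, and all were given tamoxifen, the uninjured animals included. In this line a drug-inducible Cre is made from the Tcf21 locus, which in the adult heart is used by resident fibroblasts, and Cre switches on a green fluorescent reporter that the descendants of those cells keep. Green cells were sorted after enzyme digestion of the left ventricle, from the infarct area in the case of injured hearts. Green cells were the ones collected, including any other cell type in which Tcf21 had been active, and markers of other cells were checked in the values. The labels call the arrays of a group biological replicates and give neither age nor sex.

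After an infarct, resident fibroblasts divide and turn into contractile myofibroblasts, which lay down the collagen that replaces dead muscle. Myofibroblasts are marked by smooth muscle actin (Acta2) and by secreted proteins such as periostin (Postn). Scar tissue later matures as collagen fibrils are bound by small proteoglycans and crosslinked by lysyl oxidases, and it comes to resemble tendon in bearing load along aligned fibres.

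The signals were on a log2 scale. A level of 6.04 was taken as background, the 95th percentile of 1399 odorant and vomeronasal receptor genes, and 10461 to 10750 genes lay above it on each of the 6 arrays. Expression values of replicate arrays correlated at 0.972 to 0.992 within the 4-week group and at 0.971 to 0.991 within the uninjured group, against 0.958 to 0.983 between the groups. The array numbered 1 in each group of the series stood apart from the rest: a test between these 5 arrays and the 9 with other numbers called 7075 genes, and 14 of 23 background control rows held equal values on all 5, against 0 rows on those 9. Results are therefore given from a plain fit, with list counts and lost or gained calls also from a fit with the arrays numbered 1 as a block. As a list, fibroblast markers were strong in both groups. All 11 examined exceeded background in either group, and their mean log2 signal was 14.6 to 14.8 on the 4-week arrays and 14.7 to 14.9 on the uninjured arrays. Thy1, one of them, was far weaker, at 6.60, 6.88 and 7.00 at 4 weeks against 8.44, 9.04 and 8.66 in uninjured cells. Of the Y-linked genes, Uty read 3.11, 7.26 and 7.10 at 4 weeks, against 9.67, 9.58 and 9.04 in uninjured cells. All 3 scar arrays were thus lower than all 3 uninjured arrays, and the 4-week array numbered 1 was below background for this transcript. The mean of the Y-linked genes was 3.30, 5.39 and 5.32 at 4 weeks against 7.02, 6.66 and 6.32 in uninjured cells. Counts from a fit with a block for Y-linked signal are given with the limits. That block split the arrays at 4.52, the median of the receptor genes. It placed 4W arrays 2 and 3 with the uninjured arrays, so it cannot remove the difference between these.

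At 4 weeks 372 genes differed from uninjured fibroblasts, 194 of them higher and 178 lower (limma, adjusted p below 0.05). These calls made up 1.91% of the genes tested, 0.995% higher and 0.913% lower. With the arrays numbered 1 as a block all 372 were called and 351 more joined them, 357 higher and 366 lower in all, which is 3.71% of the genes (1.83% higher and 1.88% lower). The list counts below are to be read beside these shares, and no list was tested against them. At least a 2-fold change was seen for 351 of the 372. Rises were the steeper: 42 genes rose and 8 fell at least 8-fold. In every one of the 372 the 3 values at 4 weeks lay wholly above or wholly below the 3 uninjured values. As the same values gave the calls, this separation adds no support to them. The call of 180 genes, 113 higher and 67 lower, survived the removal of any 1 of the 6 arrays. The count was 236, 237 and 239 without uninjured array 2, uninjured array 3 or 4W array 1.

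**Figure D1:**
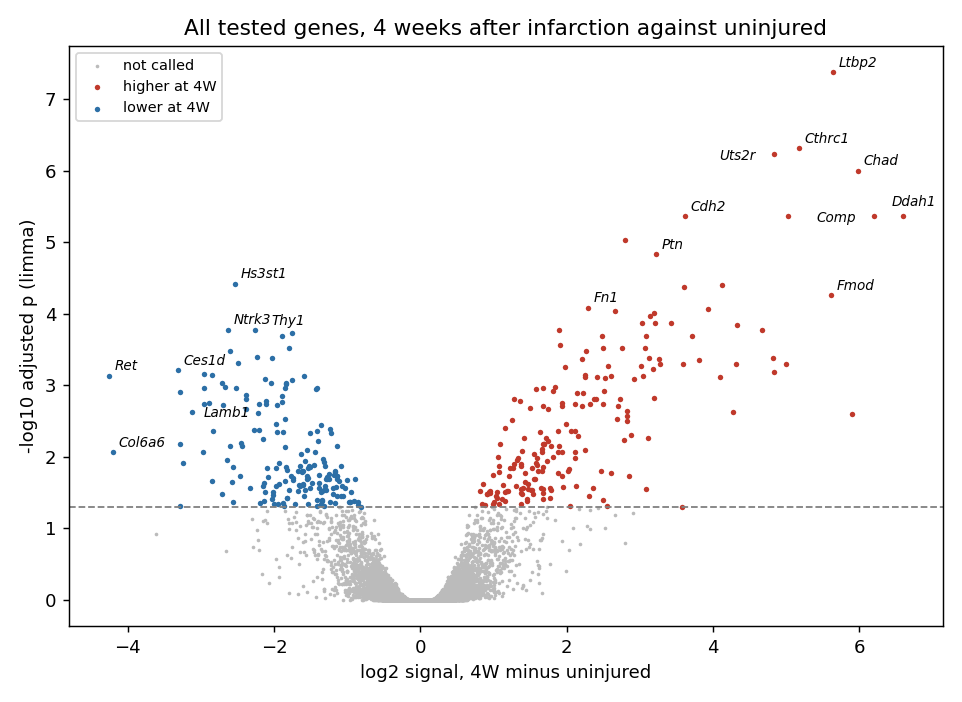
Difference in log2 signal, 4 weeks minus uninjured, on the horizontal axis against −log10 of the adjusted p from limma on the vertical axis, for 19494 genes. Red points are the 194 genes higher at 4 weeks, blue points the 178 lower, and the dashed line is the threshold of 0.05. The rises reach 6.59 and the falls −4.26 on the log2 scale.

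Most of the transcriptome lay close to its uninjured level. Of 10924 genes above background in either group, 6400 (58.6%) had a 95% interval of the difference wholly within 2-fold, and 8077 (73.9%) with the block. Vim, an intermediate filament of mesenchymal cells, was among them, with a difference of 0.08 (95% interval −0.38 to 0.53). So was Sox9, the master transcription factor of cartilage, with a difference of 0.24 (−0.23 to 0.70).

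Matrix genes of cartilage and tendon were among the largest rises. Comp, the cartilage oligomeric matrix protein that binds collagen fibrils, had log2 signals of 15.85, 14.92 and 15.02 at 4 weeks, against 7.92, 9.37 and 9.88 in uninjured cells. All 3 scar arrays were thus far above all 3 uninjured arrays. The difference was 6.21 ± 0.44 (SE, adjusted p = 4.33e-06), or 73.8-fold. Chad, which encodes chondroadherin, a leucine-rich cartilage protein bound by cells, read 14.65, 13.45 and 13.54 against 7.32, 8.03 and 8.33, a difference of 5.98 ± 0.36 (adjusted p = 9.93e-07). The paired genes Cilp and Cilp2 encode proteins named for the intermediate layer of cartilage. Cilp read 15.61, 15.79 and 15.97 against 12.52, 13.09 and 13.27, while Cilp2 read 9.37, 10.09 and 11.12 against 5.98, 6.38 and 6.44. Cilp was therefore well above background in uninjured cells and Cilp2 near it. Their differences were 2.83 ± 0.43 and 3.93 ± 0.37 (adjusted p = 0.00228 and 8.54e-05). Of 30 cartilage matrix genes measured, 11 were below background on all 6 arrays. In the list 5 genes rose and 0 fell (16.7% called, beside 1.91% over all genes), and 6 and 0 with the block. The median difference of the list was 0.35, beside 0.01 over all genes. The fixed cartilage names Comp, Chad and Cilp2, which are among the 5 rises, had been picked by the study from these arrays. Neither their direction nor the list count and median that include them are thus independent evidence.

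Many tendon and ligament genes rose. Of 23 measured, 11 rose and 2 fell, in the plain fit and with the block, with a median of 0.48, and the 11 rises were called in each of the 6 fits that left out an array. Fmod encodes fibromodulin, a small proteoglycan that binds collagen fibrils. It read 14.29, 13.82 and 13.82 at 4 weeks, against 7.39, 8.99 and 8.71 in uninjured cells, a difference of 5.62 ± 0.51 (adjusted p = 5.51e-05). Tnmd, the gene of tenomodulin, a membrane glycoprotein of tendon cells, was near background in uninjured cells and clearly present in the scar, at 9.17, 10.95 and 10.78 against 5.43, 6.07 and 6.43. Its difference was 4.32 ± 0.44 (adjusted p = 0.000141). Thbs4, a thrombospondin of tendon and muscle, read 11.11, 12.45 and 12.71 against 7.76, 7.39 and 7.10 and rose by 4.68 ± 0.49 (adjusted p = 0.000167). Sfrp2, a secreted modulator of Wnt signals, read 13.55, 12.04 and 11.88 against 6.70, 8.23 and 8.03, a rise of 4.84 ± 0.61 (adjusted p = 0.000648). The 2 members that fell were Tppp3, a marker of tendon sheath cells, and Htra1, a secreted protease, by 1.98 and 1.53. Their adjusted p-values of 0.0252 and 0.0453 passed 0.05 without some arrays: for Tppp3 these were 4W array 1 and uninjured arrays 2 and 3 (0.0596, 0.128 and 0.104), and for Htra1 each of the 6 (0.0555 to 0.168).

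Scx, which encodes scleraxis, the basic helix-loop-helix factor that marks tendon progenitors, crossed the background level. It read 7.72, 7.20 and 7.67 at 4 weeks, against 5.03, 5.27 and 5.95 in uninjured cells, which is at least 2.81-fold higher (adjusted p = 0.00854). Runx1, a Runt-domain factor known from blood and skeletal development, also rose. It read 12.15, 12.14 and 12.09 against 6.48, 7.18 and 7.63, with almost no spread among the scar arrays, and rose by 5.03 ± 0.36 (adjusted p = 4.33e-06). These were the 2 rises among 31 skeletal lineage factors measured, of which 0 fell (3 and 0 with the block). Of 22 bone genes 12 were below background on all 6 arrays. Of the 22, limma called 0 in the plain fit and 1 with the block. At an unadjusted p under 0.05 limma picked 5 of the 22 and the methods' t-test 1, beside 1710 and 1401 of all 19494 genes. At shares of 1.91% and 3.71% over all genes, so short a list would hold few calls, and 0 does not set it apart. The t-test is the 2-tailed test that the study's methods name for 2 groups, run here on the 6 arrays. The study called its array differences with the Transcriptome Analysis Console.

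The letters before the start sites of Chad and Fmod are shown because they head the cartilage and the tendon list among genes with an entry. They are the 200 bases before the RefSeq start, build GRCm38.p6, both on the plus strand, at chr11:94564847-94565046 and chr1:134037054-134037253. Capitals mark the TATA box letters TATAAA on the gene's strand, or the letters CATCTG of an E-box, the kind of site that scleraxis binds.
Chad: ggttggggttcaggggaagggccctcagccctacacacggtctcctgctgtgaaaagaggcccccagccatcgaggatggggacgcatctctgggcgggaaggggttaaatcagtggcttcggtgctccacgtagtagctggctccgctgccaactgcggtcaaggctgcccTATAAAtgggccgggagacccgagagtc
Fmod: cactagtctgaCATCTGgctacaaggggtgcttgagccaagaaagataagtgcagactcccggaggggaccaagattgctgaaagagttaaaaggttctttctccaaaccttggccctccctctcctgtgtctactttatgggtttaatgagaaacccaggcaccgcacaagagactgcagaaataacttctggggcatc
Over the 250 bases before the start, CATCTG on either strand was present in 14.5% of the genes higher at 4 weeks that had an entry (21 of 145) and in 12.3% of all tested genes that had one (1929 of 15683). The RUNX letters TGTGGT on either strand were present in 8.97% (13 of 145) and 11.8% (1856 of 15683). The shares among risen genes thus lay near those of all genes.

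**Figure D2:**
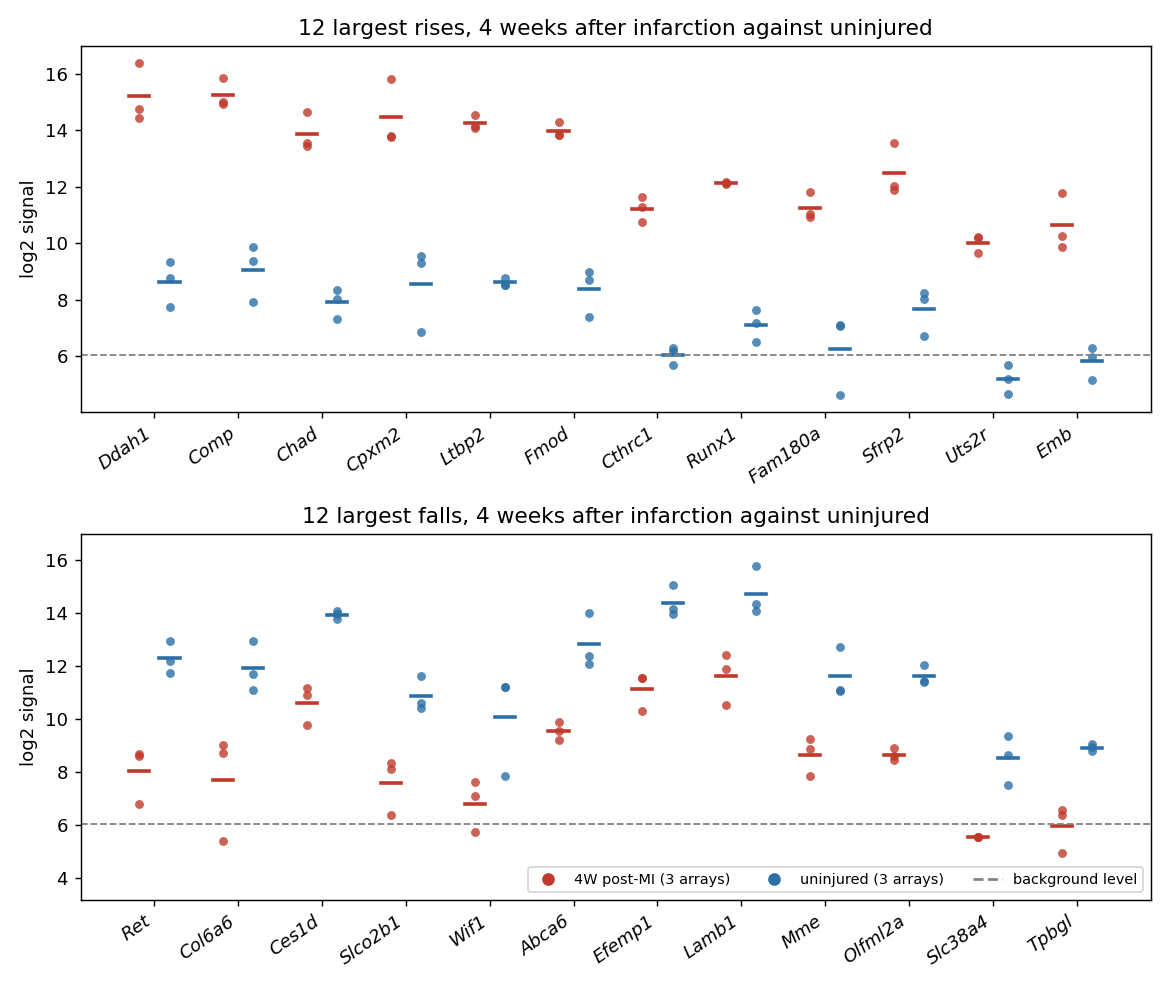
Log2 signal (vertical axis) of the 12 genes with the largest rises (top) and the 12 with the largest falls (bottom), with 1 point per array, red for 4 weeks and blue for uninjured, a bar at each group mean, and a dashed line at the background level of 6.04. In all 24 genes the points of the groups are separate, which the rule for choosing them required, and Wif1 shows 1 uninjured array far below the other 2.

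The remaining large rises were of mixed function. Ddah1, an enzyme that breaks down methylated arginines that inhibit nitric oxide synthase, rose the most. Its signals of 16.40, 14.44 and 14.76 at 4 weeks stood against 7.74, 9.33 and 8.75 in uninjured cells, a difference of 6.59 ± 0.46 (adjusted p = 4.33e-06). Ltbp2, a protein of elastic microfibrils, gave the smallest p of all genes, with 14.53, 14.06 and 14.14 against 8.53, 8.53 and 8.75, a difference of 5.64 ± 0.24 (adjusted p = 4.17e-08). The spread within each group was small beside that difference. Cpxm2, a carboxypeptidase-like secreted protein, rose by 5.90 and Emb, an immunoglobulin-family partner of lactate transporters, by 4.82 (adjusted p = 0.00253 and 0.000411).

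Uts2r, the receptor of the vasoactive peptide urotensin II, was detected only in the scar cells of this comparison. It read 10.21, 9.64 and 10.18 at 4 weeks, against 4.66, 5.68 and 5.20 in uninjured cells, where all 3 arrays were below background. The rise was at least 15.7-fold (adjusted p = 5.85e-07). Among 45 vasoactive, nitric oxide and prostanoid genes, Uts2r and Ddah1 were the 2 that rose, and 2 fell, against 4 rises and 5 falls with the block. In the plain fit 8.89% of the list was called, beside 1.91% over all genes. The falls numbered 0 without uninjured array 1 or 3, and 1 without 4W array 1 or 3 or uninjured array 2.

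Few fibrillar collagens passed the test in the plain fit. Col1a1 read 15.92, 16.61 and 16.65 at 4 weeks, against 15.19, 15.49 and 15.55 in uninjured cells. The groups did not overlap, but the difference of 0.98 ± 0.23 missed the threshold in the plain fit (adjusted p = 0.0507) and passed it with the block (0.0137). Col3a1 differed by 0.90 (adjusted p = 0.119, and 0.0645 with the block). Of 11 fibrillar collagen genes 1 rose, Col1a2 by 1.34 (adjusted p = 0.0103, with 0.0509 and 0.0528 without 4W array 2 or 3), and 4 rose with the block. The median difference of these 11 genes was 0.69. Of 15 small leucine-rich proteoglycans, the family of Fmod, 1 rose and 0 fell in both fits, and their median was 0.35. Col14a1, a collagen that decorates fibril surfaces, rose by 1.63 (adjusted p = 0.00449). Col6a6, a chain of the pericellular collagen VI, ran the other way, with 5.41, 9.04 and 8.72 at 4 weeks against 12.97, 11.72 and 11.10, a difference of −4.21 ± 0.76 (adjusted p = 0.00867).

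Several enzymes that modify and crosslink collagen rose. Lox, lysyl oxidase, read 12.48, 10.58 and 10.13 at 4 weeks, against 7.17, 7.39 and 7.20 in uninjured cells. Its scar values varied more than its uninjured values, and the difference was 3.81 ± 0.46 (adjusted p = 0.000443). Loxl3 of the same family rose by 1.89 (adjusted p = 0.000167) and P3h2, a prolyl hydroxylase, by 2.38 (0.00155). In all, 5 of 31 genes of collagen processing rose and 1 fell (19.4% called, beside 1.91% over all genes), and 6 and 2 with the block. The number that rose was 3 without uninjured array 3, and the fall was lost on leaving out any array but that one.

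Of 38 matricellular and adhesive glycoproteins 9 rose and 3 fell, and 11 rose and 6 fell with the block. Cthrc1, a secreted collagen triple helix repeat protein of activated fibroblasts, read 11.62, 11.30 and 10.73 at 4 weeks, against 6.17, 6.29 and 5.68 near background in uninjured cells. It rose by 5.17 ± 0.28 (adjusted p = 4.84e-07). Ccn5 and Ccn2 of the CCN family rose by 4.10 and 2.70 (adjusted p = 0.000767 and 0.00192). Fn1, fibronectin, read 17.42, 16.76 and 16.78 against 14.65, 14.67 and 14.77, with tight uninjured values, and rose by 2.29 ± 0.22 (adjusted p = 8.2e-05). Tnc, tenascin C, rose by 2.15 (adjusted p = 0.00505). Postn rose by 1.12 (adjusted p = 0.0245). That call was lost without 4W array 1, 2 or 3 or uninjured array 2 or 3 (adjusted p = 0.0615, 0.0897, 0.0794, 0.111 and 0.11). Among the falls, Emilin2, an elastic fibre-associated glycoprotein, read 8.63, 9.71 and 9.71 at 4 weeks against about the same high level on all 3 uninjured arrays (11.96 ± 0.04, SD), a fall of 2.61 (adjusted p = 0.000325). Vtn, vitronectin, fell by 2.38 (adjusted p = 0.00155).

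The called basement membrane genes were all lower. Of 25 measured, 0 rose and 4 fell, with a median of −0.32, and 9 fell with the block. Lamb1, a laminin beta chain, read 10.54, 11.89 and 12.44 at 4 weeks, against 15.79, 14.35 and 14.09 in uninjured cells, a difference of −3.12 ± 0.47 (adjusted p = 0.00235). The other 3 were Col15a1, the basement membrane linker Nid2 and the laminin chain Lama4, with differences of −1.99, −1.77 and −1.31 (adjusted p = 0.0457, 0.0184 and 0.0252). Each of these 3 calls depended on single arrays. Without 4W array 1, 4W array 2, uninjured array 1 or uninjured array 2 the list held 2, 2, 1 and 2 falls. The adjusted p rose at most to 0.132 for Col15a1 without uninjured array 1, to 0.0734 for Nid2 without 4W array 1 and to 0.105 for Lama4 without 4W array 2. Efemp1, or fibulin 3, an elastic fibre protein, fell by 3.24 (adjusted p = 0.0121, and 0.0561 without 4W array 1).

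Proteases and their inhibitors moved both ways. Of 44 metalloproteinase and inhibitor genes 3 rose and 1 fell, and 3 rose and 4 fell with the block. Without uninjured array 3 the list held 1 rise, and the fall was kept only on leaving out 4W array 3. Timp1, a tissue inhibitor, read 12.57, 13.75 and 13.62 at 4 weeks, against 10.73, 11.68 and 11.54 in uninjured cells, and rose by 2.00 ± 0.32 (adjusted p = 0.0035). In the list of plasminogen activation, serpins and related proteases 2 of 17 rose and 2 fell (2 and 3 with the block), with a median of −0.33. Serpina3n, a serine protease inhibitor, and Ctsk, the collagen-degrading cathepsin K, rose by 2.06 and 1.28 (adjusted p = 0.00438 and 0.00155). The falls were those of Htra1, described above, and of Fap, the fibroblast activation protease, by 1.75 (adjusted p = 0.0197, with 0.0701, 0.0716 and 0.0761 without 4W array 3, uninjured array 1 or uninjured array 2). The number of falls was 1 without 4W array 1, 4W array 2 or uninjured array 3, and 0 without any of the other 3 arrays.

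Some contractile genes rose. Palld, an actin-bundling protein of myofibroblasts, read 12.65, 11.57 and 11.45 at 4 weeks, against 7.00, 8.17 and 8.13 in uninjured cells, and rose by 4.12 ± 0.36 (adjusted p = 3.92e-05). Actn1, alpha-actinin 1, rose by 3.01 (adjusted p = 0.000543). Acta2 itself read 13.35, 12.01 and 12.33 against 8.82, 11.54 and 11.08. Its groups did not overlap, yet the uninjured values spanned a wide range, and the difference of 2.08 ± 0.57 missed the threshold (adjusted p = 0.0977, and 0.0482 with the block, but 0.07 with the replicate number as a block). Of 30 contractile genes 3 rose and 0 fell (10% called, beside 1.91% over all genes), and 6 rose with the block. Of 12 pericyte and smooth muscle markers 2 rose and 1 fell (2 and 2 with the block), and their mean log2 signal was 7.55 to 7.90 at 4 weeks against 7.49 to 8.39 in uninjured cells.

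Cell cycle genes were not called. Of 34 measured, 16 were above background in either group, and limma called 0 in the plain fit and 0 with the block. At shares of 1.91% and 3.71% over all genes, 34 genes would hold few calls, so that 0 does not set them apart. At an unadjusted p under 0.05 limma picked 2 and the methods' t-test 3, beside 1710 and 1401 of all 19494 genes. Cdk1 lay below background on all 6 arrays, as did Mki67.

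**Figure D3:**
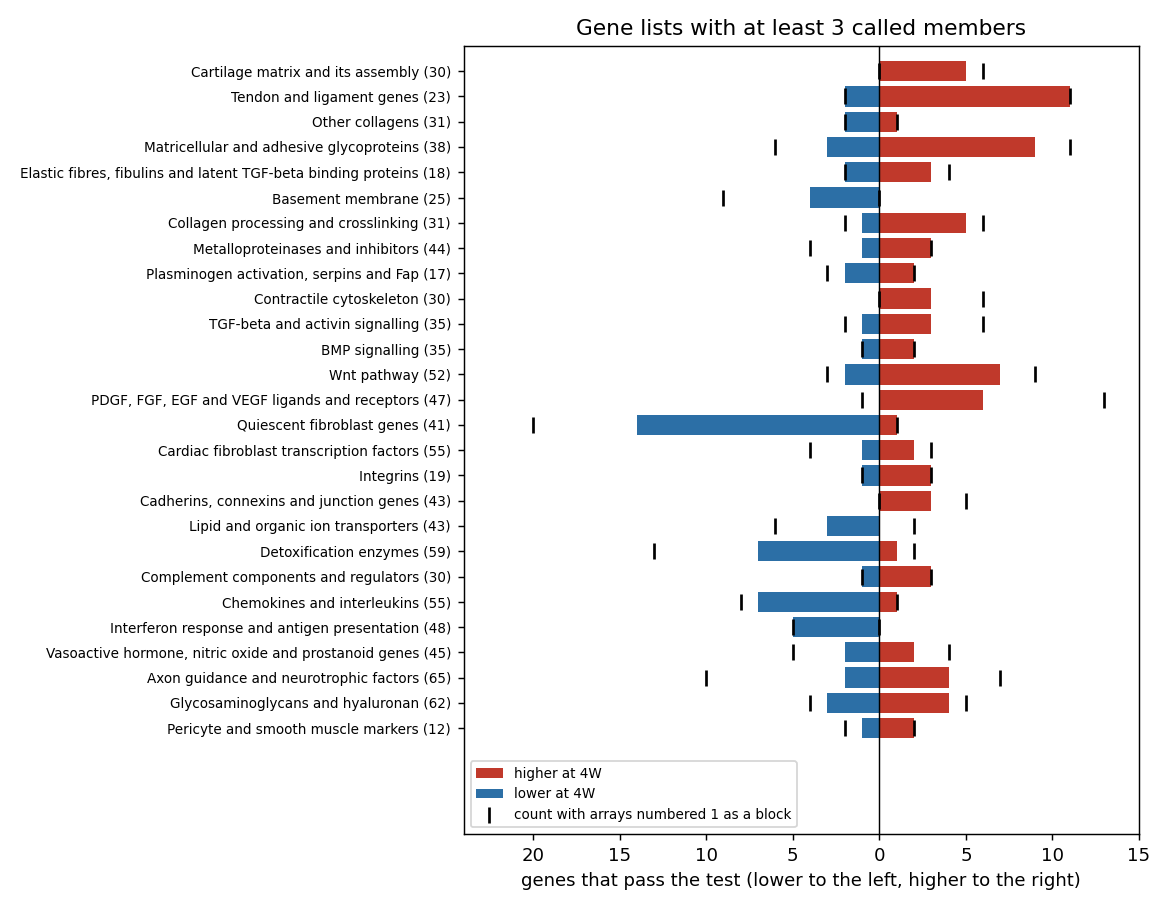
Number of genes that pass the test in each list with at least 3 called members, red to the right for genes higher at 4 weeks and blue to the left for genes lower; black ticks give the counts with the arrays numbered 1 as a block, and the number measured stands in parentheses. The longest bars are the 11 tendon genes that rose and the 14 quiescent fibroblast genes that fell.

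Genes of several signalling pathways were called. Tgfb3, a transforming growth factor beta ligand, read 17.04, 16.78 and 16.89 at 4 weeks, against 14.88, 15.04 and 15.09 in uninjured cells, with little spread in either group. It rose by 1.90 ± 0.21 (adjusted p = 0.000276). Tgfb1 and Tgfb2 were not called, with differences of 1.06 and −0.84 (adjusted p = 0.331 and 0.41). With the block Tgfb1 was called (adjusted p = 0.0259). Of 35 genes of TGF-beta and activin signalling 3 rose and 1 fell (11.4% called, beside 1.91% over all genes), and 6 and 2 with the block. The fall, of the latent TGF-beta binding protein Ltbp1, was lost without 4W array 1 or 2 or uninjured array 1 or 3 (adjusted p = 0.098, 0.0717, 0.0676 and 0.0645), and 2 genes fell without 4W array 3. In the bone morphogenetic protein list Smad6, an inhibitor of the pathway within the cell, rose by 1.94 (adjusted p = 0.00859). Bmp2, a ligand, was below background on the 3 scar arrays and on uninjured array 2, with 4.37, 4.46 and 4.52 at 4 weeks against 6.99, 5.79 and 7.24, at least 1.55-fold lower (adjusted p = 0.00244).

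In the Wnt list 7 of 52 genes rose and 2 fell (17.3% called, beside 1.91% over all genes), and 9 and 3 with the block. The rises with the smallest p were those of Nkd2, a negative regulator of the pathway, and Dkk3, a secreted protein of the Dickkopf family. Nkd2 read 13.81, 12.10 and 12.39 at 4 weeks, against 9.64, 9.07 and 9.76 in uninjured cells, and rose by 3.28 ± 0.40 (adjusted p = 0.000496). Dkk3 rose by 2.57 (adjusted p = 0.000537). Wif1, a secreted Wnt inhibitor, read 5.73, 7.10 and 7.63 against 7.88, 11.23 and 11.21, so that the groups nearly met. Its fall of 3.28 (adjusted p = 0.0483) was lost without 4W array 1, 2 or 3 or uninjured array 2 or 3 (adjusted p = 0.184, 0.109, 0.0617, 0.239 and 0.221). The number of rises was 4 without 4W array 1 or 3, and 3 without uninjured array 2 or 3. Both falls were lost without 4W array 1 or 3 or uninjured array 2 or 3.

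Growth factor genes of the PDGF, FGF, EGF and VEGF families showed 6 rises and 0 falls among 47, and 13 rises and 1 fall with the block. The 6 made up 12.8% of the list, beside 1.91% called over all genes. Pdgfc, a ligand of PDGF receptors, was below background in uninjured cells and rose at least 2.83-fold (adjusted p = 0.00268). Vegfd, a lymphatic growth factor, read 13.65, 12.63 and 12.53 at 4 weeks, against 9.84, 10.71 and 10.67 in uninjured cells, and rose by 2.53 ± 0.33 (adjusted p = 0.000795). Angpt2, an angiopoietin, rose by 2.31 (adjusted p = 0.00183). The number of rises was 4 without 4W array 1.

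Many genes of quiescent fibroblasts fell. Of 41 measured, 14 fell and 1 rose, with a median of −1.22, beside 0.01 over all genes, and 20 fell with the block. The number of falls was 9, 10, 9, 9, 8 and 9 without 4W array 1, 2 or 3 or uninjured array 1, 2 or 3. Ces1d, a carboxylesterase of lipid breakdown, read 9.80, 10.90 and 11.19 at 4 weeks, against 14.08, 13.98 and 13.79 in uninjured cells. Even the highest scar value stood well below the lowest uninjured value, and the difference was −3.32 ± 0.42 (adjusted p = 0.000612). Slco2b1, an organic anion transporter, fell by 3.29 and Abca6, a lipid transporter, by 3.28 (adjusted p = 0.00123 and 0.00656). Tcf21, the lineage gene of the sort, read 12.27, 11.95 and 12.05 against 12.33, 13.56 and 13.66. The lowest uninjured value met the scar values, and the difference of −1.09 ± 0.29 was not called in the plain fit (adjusted p = 0.0819) but was with the block (0.0361). Thy1, a surface glycoprotein of fibroblasts, read 6.60, 6.88 and 7.00 against 8.44, 9.04 and 8.66 and fell by 1.89 (adjusted p = 0.000203).

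Some detoxification enzymes were lower as well. Of 59, 7 fell and 1 rose, with a median of −0.35, and 2 rose and 13 fell with the block. Adh1, alcohol dehydrogenase, read 5.47, 6.51 and 6.57 at 4 weeks, against 9.75, 8.30 and 8.62 in uninjured cells, a difference of −2.70 ± 0.40 (adjusted p = 0.0019). Gstt1, a glutathione transferase, fell by 1.83 (adjusted p = 0.000967). Other glutathione transferases of the list are near copies of each other and their probes may share signal. The falls of this list numbered 3 without 4W array 1, 4W array 2 or uninjured array 3, and 4 without uninjured array 2.

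Some chemokine and interferon genes fell in the sorted cells. Of 55 chemokine and interleukin genes 7 fell and 1 rose (8 and 1 with the block). Ccl7, a monocyte attractant, read 7.32, 7.64 and 7.25 at 4 weeks, against 9.67, 10.83 and 10.19 in uninjured cells, a difference of −2.83 ± 0.46 (adjusted p = 0.00438). Ccl11, or eotaxin, and the scavenging receptors Ackr3 and Ackr2 fell by 2.44, 2.46 and 1.35 (adjusted p = 0.00698, 0.0063 and 0.00364). The rise was that of Cx3cl1, a membrane-bound chemokine below background in uninjured cells and at least 2.21-fold higher in the scar (adjusted p = 0.000301). The number of falls was 4 without uninjured array 2 or 3. Of 48 interferon response and antigen presentation genes 5 fell and 0 rose in both fits, with Mx2, an antiviral GTPase, lower by 1.90 (adjusted p = 0.0014). That number was 2 without 4W array 3 or uninjured array 3, and 3 without uninjured array 2. Of 30 complement genes 3 rose and 1 fell in both fits, the fall being kept only on leaving out uninjured array 1. C4b rose by 2.24 (adjusted p = 0.000718), although C4a and C4b are near copies and their signals may not be separate. Without 4W array 3 the complement list held 1 rise.

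Genes of nerve guidance and growth moved both ways. Ret, the receptor tyrosine kinase of the GDNF ligands, showed the largest fall of all genes, with 6.80, 8.70 and 8.63 at 4 weeks against 12.95, 12.22 and 11.75 in uninjured cells. Its difference was −4.26 ± 0.55 (adjusted p = 0.000732). Ntrk3, the neurotrophin 3 receptor, read 5.69, 6.39 and 6.41 against 8.87, 8.88 and 8.63 and fell by 2.63 (adjusted p = 0.000167). Ptn, the heparin-binding growth factor pleiotrophin, read 14.70, 13.80 and 13.74 against 11.01, 10.81 and 10.78 and rose by 3.22 ± 0.26 (adjusted p = 1.46e-05). Plxna4, a semaphorin receptor, and Neo1, a netrin and repulsive guidance molecule receptor, rose by 3.18 and 2.40 (adjusted p = 0.000588 and 0.00155). In all 4 of 65 rose and 2 fell (9.23% called, beside 1.91% over all genes), and with the block 7 rose and 10 fell.

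Adhesion and sulfation genes were also called. Cdh2, N-cadherin, read 12.26, 11.47 and 11.44 at 4 weeks, against 7.89, 8.42 and 8.02 in uninjured cells, and rose by 3.61 ± 0.25 (adjusted p = 4.33e-06). Ncam1, a neural cell adhesion molecule, rose by 2.78 (adjusted p = 0.00583). Itgbl1, an integrin beta-like secreted protein, rose by 2.69 and Itga8, the integrin alpha 8 chain, fell by 1.96 (adjusted p = 0.00297 and 0.00449). Hs3st1, a heparan sulfate sulfotransferase, read 8.31, 8.82 and 9.02 against 11.17, 11.33 and 11.26, the fall with the smallest p of all, by 2.53 ± 0.22 (adjusted p = 3.78e-05). Chst7 fell by 1.80 and Chst11 rose by 1.78, both enzymes that add sulfate to chondroitin (adjusted p = 0.000301 and 0.00695). Faim2, which protects cells from death through the Fas receptor, rose by 3.26 (adjusted p = 0.000425).

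Some called genes crossed the background level, 23 of them above it on all scar arrays and below it on all uninjured arrays, and 9 the other way. Uts2r had the largest rise among the 23. Slc38a4, an amino acid transporter, was the strongest of the 9, with 5.58, 5.54 and 5.57 at 4 weeks against 7.53, 9.38 and 8.65 in uninjured cells, at least 5.59-fold lower (adjusted p = 0.00181).

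Markers of other cells were examined for their part in these differences. Of 17 macrophage markers 8 were below background on all 6 arrays, C1qc, Tyrobp, Csf1r and Itgam being low throughout. Another 8 were above background in either group. Their median difference was 0.37, beside −0.01 over all genes above background. The mean log2 signal of the 17 was 5.55 to 6.14 at 4 weeks against 5.50 to 5.92 in uninjured cells. Of 8 neutrophil and 10 lymphocyte markers 7 and 8 were below background on all 6. Endothelial markers averaged 7.33 to 8.90 at 4 weeks against 8.50 to 9.66 in uninjured cells, and cardiomyocyte markers 6.10 to 7.54 against 6.46 to 7.98. limma called 0 genes of these 5 lists in the plain fit and 1 endothelial gene with the block. At an unadjusted p under 0.05 limma picked 1 of 11 endothelial and 2 of 14 cardiomyocyte genes and 0 of the others. The methods' t-test picked 1 macrophage and 1 endothelial gene. Over all 19494 genes the 2 tests picked 1710 and 1401. Outside these 5 lists some markers were called in the plain fit. Of 12 pericyte and smooth muscle markers, Cspg4 and Pdgfrb rose and Vtn fell (25% called). Of 7 Schwann cell markers S100b rose (14.3%), and of 10 osteoclast markers Ctsk rose (10%), beside 1.91% over all genes. The calls of Cspg4, Pdgfrb and S100b depended on single arrays. Of 11 epicardial markers 0 were called. As endothelial and cardiomyocyte means ran lower at 4 weeks, their part in the falls was not tested. Fewer cells of a type and less RNA per cell cannot be told apart in such arrays.

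The 4-week state differed from that at 7 days in 849 genes (4.36%) but from that at 2 weeks in 5 genes (0.0256%), and in 17 (0.0872%) with the block. The 2-week group has 2 arrays, and these comparisons share the 4-week arrays with the comparison above. Mean Y-linked signal was 3.85 and 3.89 at 2 weeks against 3.30, 5.39 and 5.32 at 4 weeks, and its part was not tested. Chad and Uts2r were still climbing. Chad averaged 4.38 ± 0.33 on day 3 and 7.55 ± 0.48 on day 7, then 11.19 ± 0.12 after 2 weeks and 13.88 ± 0.67 after 4 weeks, with 7.90 ± 0.52 in uninjured cells (SD). Uts2r averaged 4.39 ± 0.21, 4.73 ± 0.26, 7.26 ± 0.30 and 10.01 ± 0.32 at the same times, with 5.18 ± 0.51 in uninjured cells. Both were higher at 4 than at 2 weeks, by 2.69 and 2.75 (adjusted p = 0.0455 and 0.00546). Cthrc1 and Tnc had passed their highest means, of 15.10 ± 0.36 at 7 days and 17.58 ± 0.38 at 3 days. Their differences between 4 and 2 weeks were −2.60 and −2.95 (adjusted p = 0.00674 and 0.0212), while both were above uninjured cells.

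The fifth was the row with the symbol Mir675, a microRNA gene. Its signal peaked at 15.75 ± 0.53 on day 7 and stood at 11.83 ± 0.19 after 2 weeks and 7.74 ± 0.87 after 4 weeks, with 5.80 ± 0.57 in uninjured cells. Its difference between 4 and 2 weeks was −4.08 (adjusted p = 0.00546). Against uninjured cells it was 1.95 higher (adjusted p = 0.0262), a call lost without 4W array 1 or 3 or uninjured array 1 or 3 (adjusted p = 0.0994, 0.0766, 0.0904 and 0.0712). The row measures RNA labelled from the poly(A) tail and not the mature molecules. Which transcript of the locus gave the signal, the precursor or a longer RNA, was not tested. The RefSeq sequences of the mature molecules (GRCm38.p6, chromosome 7) follow with the seed, bases 2 to 8, in capitals. They show that the arms have different seeds.
mmu-miR-675-5p: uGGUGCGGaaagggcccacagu
mmu-miR-675-3p: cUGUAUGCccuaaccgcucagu

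**Figure D4:**
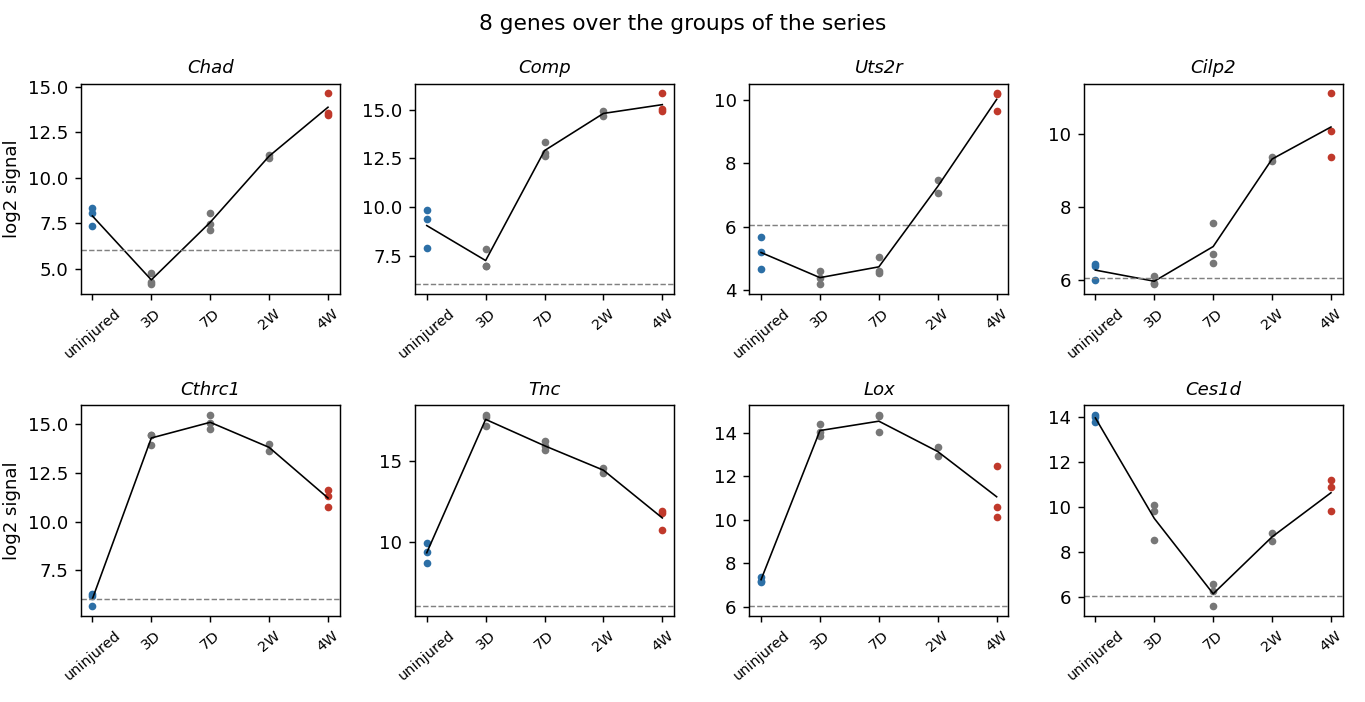
Log2 signal (vertical axes, each with its own range) of 8 genes in uninjured cells and then on days 3 and 7 and in weeks 2 and 4 of the scar; points are arrays, lines join group means, and the dashed line is the background level of 6.04. Chad and Uts2r are highest at 4 weeks, Cthrc1, Tnc and Lox are past their highest mean, and Ces1d lies between its lowest mean at 7 days and its uninjured level.

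Some genes were near their uninjured level at 4 weeks after being lower before. Vit, a matrix protein, averaged 10.37 ± 1.06, 8.23 ± 1.22, 11.35 ± 0.40 and 13.67 ± 0.57 from the earliest to the latest time, with 13.98 ± 0.29 in uninjured cells. Penk, the precursor of enkephalin peptides, averaged 8.51 ± 1.28, 8.45 ± 0.90, 8.98 ± 0.19 and 12.20 ± 1.02, with 12.49 ± 0.46 in uninjured cells. Their differences from uninjured cells at 4 weeks were −0.31 (95% interval −1.54 to 0.93) and −0.29 (−1.64 to 1.05), intervals that reach past 2-fold. Between 4 and 2 weeks they passed the test with the block (adjusted p = 0.0479 and 0.043) but not in the plain fit (0.594 and 0.355). Ces1d had come back part of the way. Its lowest mean was 6.15 ± 0.50 at 7 days, and it was 4.49 higher at 4 weeks than then (adjusted p = 4.68e-05).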

How the data were processed

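The authors deposited log2 signals, 1 value per transcript cluster and array, from Clariom S Mouse arrays of total RNA (3' IVT Pico chemistry). The submitters' processing notes name Affymetrix Expression Console; the algorithm, its version and the genome build are not given in the sources used here. Nothing was renormalized. Of 28846 rows, 6704 were controls and 2615 had no symbol; 33 genes had more than 1 row and are represented by their brightest row. The test was limma's (version 3.58.1, R 4.3.3) over all 14 arrays (group means, empirical Bayes, Benjamini-Hochberg over 19494 genes at 0.05). The code was also run on simulated data with independent noise per gene. Those data lack the shared differences of the arrays numbered 1, so they do not test how such differences affect the calls. A fold raises 2 to a difference of group means. Where all arrays of a group lay below background, the fold is taken against the background level and given as at least. The number of arrays limits precision.

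Same-numbered 4-week and uninjured arrays deviated together (correlations 0.627, 0.31 and 0.553), and arrays 2 and 3 also across numbers (0.383 and 0.354). Whether arrays sharing a number share a batch is not stated. Genes named are the 12 largest rises and falls, up to 4 called members per list and direction, names the study uses, and, chosen after their values were seen, the 16 largest changes outside the lists per direction that kept their call and genes called between 4 and 2 weeks. The comparison and the 46 lists were chosen with earlier results of these data known. Columns or files of the authors' own comparisons were not used.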

Additional observations from a re-analysis of the deposited data

Results flagged for a closer look

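The change at 4 weeks differed from the change at 2 weeks, by limma's test of that difference, in 5 genes described above. The differences (4 weeks minus 2 weeks, log2) were 2.69 for Chad, 2.75 for Uts2r, −2.60 for Cthrc1, −2.95 for Tnc and −4.08 for Mir675.

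For 47 of the 151 named genes called at 4 weeks the change differed from that at 7 days by the same test. Over all 19494 genes this held for 849 (4.36%). The 151 were called on the same 4-week arrays that this test uses, so that their larger share is no independent result. Values are log2 differences, 4 weeks minus 7 days. Matrix and collagen-modifying genes were divided. Chad (6.33), Cilp2 (3.28), Comp (2.36), Timp3 (3.34), the collagen glycosyltransferase Colgalt2 (1.96) and P3h2 (1.59) were higher at 4 weeks than at 7 days. Lower were Tnc (−4.46), P4ha3 (−4.30), Cthrc1 (−3.88), Lox (−3.48), Lamb1 (−2.29), Col1a2 (−1.75), Fn1 (−1.54), Postn (−1.48), Lama4 (−1.21) and Loxl3 (−1.17). Cytoskeletal and adhesion genes were lower at 4 weeks, namely Cdh3 (−5.47), Kif26b (−4.47), Palld (−2.37), Cdh2 (−2.02), Tagln (−1.83), Actn1 (−1.67) and Cd44 (−1.53). So were the surface proteins Thy1 (−1.71) and Fap (−1.39).

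Genes of signalling and other functions that were lower at 4 weeks than at 7 days were Mir675 (−8.00), Ror2 (−2.13), Ddah1 (−1.88), Sfrp1 (−1.85), Pdgfc (−1.67), Ptn (−1.57) and Pdgfrl (−1.05), and the transporter Slc38a4 (−4.06). Those higher were Uts2r (5.28), Fam180a (3.10), Faim2 (3.07), the BMP antagonist Chrdl1 (3.06), Ackr3 (1.80), Sntg2 (1.61), the thyroid hormone receptor Thrb (1.57) and Angpt2 (1.32). Enzymes and complement genes higher at 4 weeks were Ces1d (4.49), Gsta3 (4.26), C4b (2.42), C4a (2.14), Gstt1 (1.68) and Hs3st1 (1.32).

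The comparisons leave out 2615 rows with no gene symbol and the dimmer rows of 33 genes. Among these, 29 transcript clusters passed when all 22142 rows were tested and adjusted together.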

How the results depend on the processing

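The number of arrays is the main limit: each group has 3, and depth has no counterpart here beyond signal over background. Counts of called genes moved with the fit. Against 372 genes (194 higher, 178 lower), a fit of the 6 arrays alone gave 198 (113 and 85), the arrays numbered 1 as a block 723 (357 and 366), and both choices together, added after seeing the data, 851 (398 and 453). With the replicate number as a block, the paired fit gave 673 (340 and 333), and none of the 151 called genes that are named lost its call. With Y-linked signal as a block 256 genes changed, 145 higher and 111 lower. The methods' t-test, after Benjamini-Hochberg adjustment, gave 4 higher and 0 lower, with 1401 genes at an unadjusted p under 0.05. That test is the study's general one for 2 groups. The study's array calls came from the Transcriptome Analysis Console, which was not rerun here. At least 2-fold, 351 genes changed in the reported fit, 198 with the 6 arrays alone, 542 with the arrays numbered 1 as a block, 639 with both and 4 by the methods' t-test.

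Leaving out 1 array gave 236 to 358 genes changed, 136 to 187 higher, 98 to 171 lower and 235 to 347 at least 2-fold, and 430 to 683 changed with the arrays numbered 1 as a block (573 without 4W array 3). Of the 151 genes, 101 kept the call without any 1 array, 47 lost it with the 6 arrays alone, 31 with the Y-linked block, 19 without the 5 arrays numbered 1 and 148 by the methods' t-test. Direction reversed in genes not called. Vim was −0.045 without the 5 arrays numbered 1 and −0.13 to 0.24 on leaving out 1 array. Fbn2 was −0.24 without those 5 arrays, −0.087 with the Y-linked block and −0.33 to 0.41 on leaving out 1. Akap7 ranged over −0.37 to 0.15 and Penk over −0.88 to 0.083. The cause was not tested.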

Other observations

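Outside the gene lists 233 genes were called, and 108 of them kept the call without any 1 of the 6 arrays. Those described here were chosen after their values were seen, as the largest changes that did so. Piezo2, a mechanically gated ion channel, read 11.79, 12.99 and 12.64 at 4 weeks, against 7.84, 9.54 and 9.29 in uninjured cells, and rose by 3.58 (limma, adjusted p = 0.000496). Nox4, an NADPH oxidase that makes hydrogen peroxide, read 13.52, 12.02 and 11.99 against 9.44, 9.42 and 9.10 and rose by 3.19 (adjusted p = 0.00152). In both the groups were well apart. Myo1d, an unconventional myosin, Synpo, an actin-associated protein, and Fat4, a giant protocadherin, rose by 3.60, 3.21 and 3.04 (adjusted p = 4.14e-05, 0.000133 and 0.000732). Scg2, a granin of secretory granules, was below background in uninjured cells and at least 2.64-fold higher in the scar (adjusted p = 0.000108).

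Several receptors and signalling genes outside the lists fell. Avpr1a, a vasopressin receptor, read 5.15, 6.60 and 6.88 at 4 weeks, against 9.34, 8.72 and 9.13 in uninjured cells, a difference of −2.85 (adjusted p = 0.000718). S1pr3, a sphingosine 1-phosphate receptor, fell by 2.61, Pde9a, a cyclic GMP phosphodiesterase, by 2.67, and Pgf, the placental growth factor, by 2.38 (adjusted p = 0.00698, 0.00106 and 0.00211). Mme, or neprilysin, a peptidase that breaks down natriuretic peptides, fell by 2.97 and Ggt5, an enzyme of leukotriene conversion, by 2.89 (adjusted p = 0.00854 and 0.00177).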
